A study of Mus musculus with 16 samples.

Results

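The genes examined here belong to the sine oculis homeobox, eyes absent and dachshund families and were Six2, Six3, Six4, Six5, Six6, Eya1, Eya2, Eya4 and Dach1, 9 of the 22367 protein-coding genes of the mouse annotation. They were chosen by gene name, and the peaks assigned to them were those of a Jarid2 list and of a Jarid2-K116me2 list that overlapped the gene or lay within 5 kb of it. By this rule 10 of 4992 Jarid2 peaks and 9 of 4502 Jarid2-K116me2 peaks belonged to the family, and Eya2 had none in either list.

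The data came from chromatin immunoprecipitation followed by sequencing (ChIP-seq) in mouse embryonic stem cells (ESC) and in embryoid bodies (EB), the cell aggregates that ESC form when they differentiate. Jarid2 and Jarid2-K116me2, its form dimethylated at the lysine K116, were each profiled in 1 sample of E14 ESC, an established line grown in serum with LIF. H3K27me3 was profiled in 3 lines that share a Jarid2 -/- background, namely the Jarid2 -/- cells themselves, Jarid2 -/- cells rescued with a bacterial artificial chromosome (BAC) carrying Jarid2, and Jarid2 -/- cells rescued with the same BAC carrying the K116A change, in which that lysine is replaced by alanine. Each line was sampled as ESC in serum with LIF and as EB after 8 days of differentiation, with 2 replicates each, which gives 12 H3K27me3 libraries. The EB were formed in hanging drops without LIF and then moved to low-adherence plates. No unmodified wild-type line was profiled for H3K27me3, the rescues express Jarid2 from an inserted BAC, and the lists of peaks hold nothing that could check the loss of Jarid2 itself. Each sample was available as a list of peaks with a score and no reads, so no depth was computed here, and the 1 sample per antibody for Jarid2 and Jarid2-K116me2 allows no test between them.

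Six2 to Six6 encode homeodomain transcription factors of the sine oculis family. Eya proteins are transcriptional coactivators with phosphatase activity that bind these factors, and Dach proteins are cofactors of the same circuit, known as the retinal determination network, which acts in the development of the eye, ear, kidney and muscle. Many of these genes are silent in pluripotent cells and are regarded as targets of the Polycomb repressive complex PRC2, which methylates lysine 27 of histone H3. Jarid2 is a PRC2 cofactor that binds CpG-rich chromatin and is itself methylated by PRC2.

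The sequences below show the DNA that lay under both antibodies at these genes. For each gene whose best Jarid2 peak scored at least 300, the stretch of 120 bases richest in CpG was taken from the shared part of the Jarid2 and Jarid2-K116me2 peaks, outside exons, and is printed 5' to 3' on the strand of the gene (build NCBIM37, mm9) with each CpG in capitals. The stretches lie upstream of the gene start for Six2 (chr17:86087644-86087763), Six3 (chr17:86008314-86008433, in an intron of the antisense gene Six3os1) and Eya4 (chr10:23069871-23069990), in an intron for Six4 (chr12:74213140-74213259), Six5 (chr7:19680768-19680887) and Dach1 (chr14:98567505-98567624), and downstream of the gene for Six6 (chr12:74046596-74046715).
Six2: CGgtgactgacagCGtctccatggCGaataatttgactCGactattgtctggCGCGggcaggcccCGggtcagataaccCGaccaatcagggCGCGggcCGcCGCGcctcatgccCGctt
Six3: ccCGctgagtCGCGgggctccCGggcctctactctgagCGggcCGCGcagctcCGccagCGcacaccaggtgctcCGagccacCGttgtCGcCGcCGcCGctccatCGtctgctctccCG
Six4: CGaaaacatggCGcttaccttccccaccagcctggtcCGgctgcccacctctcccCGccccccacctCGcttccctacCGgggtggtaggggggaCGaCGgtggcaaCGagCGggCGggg
Six5: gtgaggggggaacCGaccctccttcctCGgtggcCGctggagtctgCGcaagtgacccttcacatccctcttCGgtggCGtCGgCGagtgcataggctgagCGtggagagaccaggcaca
Six6: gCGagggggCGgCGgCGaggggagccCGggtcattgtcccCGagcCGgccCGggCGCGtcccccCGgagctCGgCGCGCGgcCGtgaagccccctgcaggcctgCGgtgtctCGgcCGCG
Eya4: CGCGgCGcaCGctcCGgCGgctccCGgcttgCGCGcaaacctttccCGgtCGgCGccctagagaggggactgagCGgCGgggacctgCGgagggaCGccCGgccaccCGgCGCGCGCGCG
Dach1: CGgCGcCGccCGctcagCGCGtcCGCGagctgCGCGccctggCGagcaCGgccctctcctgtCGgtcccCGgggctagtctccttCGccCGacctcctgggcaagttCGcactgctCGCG
These stretches held from 9 CpG in Six5 to 23 in Eya4, against a mean of 5.18 per 120 bases over all Jarid2 peaks, and the higher density follows in part from choosing the richest stretch.

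Jarid2 peaks covered 8 of the 9 genes, namely all of the family but Eya2, against 18.1% of all protein-coding genes, and Jarid2-K116me2 peaks covered the same 8 against 16.0%. Peaks of both antibodies coincided by at least 1 bp at 9 of the 10 Jarid2 regions and at all 9 Jarid2-K116me2 regions of the family, compared with 79.1% and 98.7% of the whole lists. The peak that was not shared was the weakest, an upstream peak at Six6 with a score of 108.69. The score is -10 log10 of the peak caller's p-value and stops at 3100.

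The family fell into a strong and a weak set. Six2, Six3, Six6, Eya4 and Dach1 had a peak at the 3100 ceiling in both lists, a level reached within 5 kb by 3.61% of all genes for Jarid2 and 4.24% for Jarid2-K116me2. Six4, Six5 and Eya1 had scores of 333.48, 389.9 and 158.08 for Jarid2 and of 162.54, 386.2 and 124.29 for Jarid2-K116me2, all below the medians of the lists, which were 503 and 707. When only the 50% of peaks with the highest scores were kept, these 3 genes lost their peaks and 5 of 9 genes remained, against 10.8% of all genes for Jarid2 and 9.30% for Jarid2-K116me2.

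**Figure D1:**
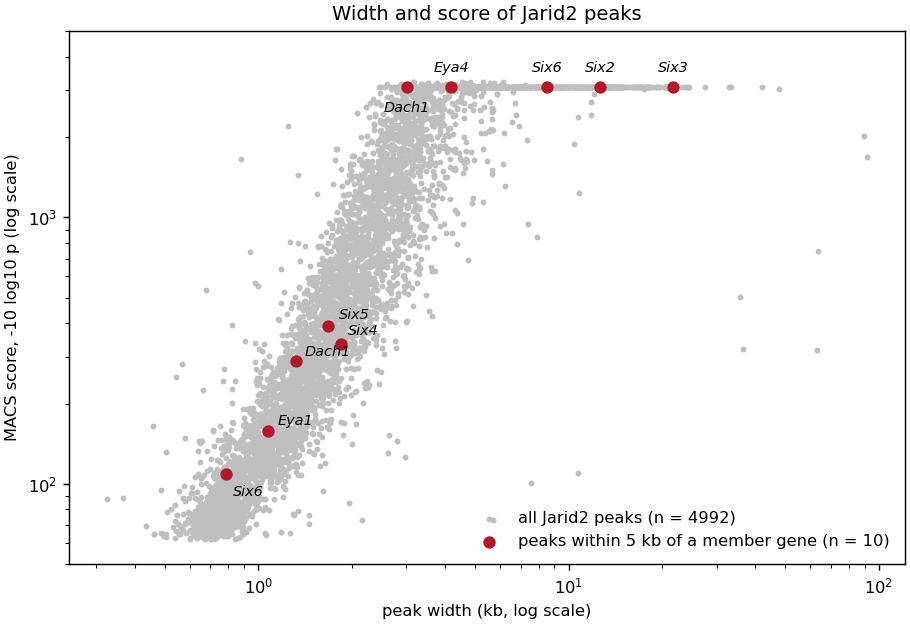
Each point is a Jarid2 peak of E14 ESC, with its width in kb on the x axis and its score on the y axis, both on log scales; grey points are all 4992 peaks and red points the 10 peaks at these genes. The best peaks of Six3, Six2, Six6, Eya4 and Dach1 lie on the ceiling of 3100, while the peaks of Six4, Six5 and Eya1 and the second peaks of Six6 and Dach1 lie among the lower scores.

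Six3, a regulator of forebrain and eye development, had the widest peak of the family. Its Jarid2 peak spanned 21787 bp (chr17:86006131-86027917), from 6817 bp upstream of the gene start to 14969 bp downstream, and contained all 3 annotated start sites. The Jarid2-K116me2 peak spanned 19797 bp (chr17:86006485-86026281) and lay wholly inside it. Only 31 of 4992 Jarid2 peaks and 6 of 4502 Jarid2-K116me2 peaks were wider than 20 kb, and the Six3 Jarid2-K116me2 peak fell just short of that width.

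Six2, which maintains nephron progenitors in the kidney, lies next to Six3 on chromosome 17. Its Jarid2 peak of 12643 bp (chr17:86080217-86092859) and its Jarid2-K116me2 peak of 11265 bp (chr17:86081608-86092872) covered the whole gene of 3987 bp with its flanks. The Six3 and Six2 Jarid2 peaks were separated by 52299 bp. The 1001 bases around the 5' end of Six2 had the highest CpG ratio of the family, 0.94, where the ratio is the observed number of CpG over that expected from the C and G content.

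Six6, a regulator of eye and pituitary development, had a Jarid2 peak of 8528 bp (chr12:74039865-74048392) over the whole gene. Jarid2-K116me2 was listed there as 2 peaks, of 3444 bp with a score of 3100 over the gene start and of 2816 bp with a score of 2279.86 over the 3' end. The interval between them was part of the Jarid2 peak but of no Jarid2-K116me2 peak. Six4, which lies 155359 bp from Six6 and acts in muscle and kidney development, had only a narrow pair of peaks inside the gene, the Jarid2 peak of 1842 bp (chr12:74212263-74214104) and a Jarid2-K116me2 peak of 909 bp, and the Jarid2 peak began 297 bp downstream of the gene start.

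Six5, expressed in muscle and lens, had a Jarid2 peak of 1677 bp (chr7:19679909-19681585) and a Jarid2-K116me2 peak of 1590 bp, which began 16 and 174 bp downstream of the gene start and covered 44.1% and 41.8% of the gene. Among the Eya genes, Eya4, a gene linked to hearing and heart function, had peaks of 4189 bp (chr10:23066945-23071133) and 3991 bp across its start. Eya1, the gene mutated in branchio-oto-renal syndrome, had peaks of 1075 bp (chr1:14299355-14300429) and 702 bp across its start. Dach1, a corepressor in this circuit, had a Jarid2 peak of 3016 bp (chr14:98566373-98569388) over its 3 annotated starts, a neighbouring peak of 1320 bp with a score of 287.79, and a single Jarid2-K116me2 peak of 3217 bp that touched both.

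**Figure D2:**
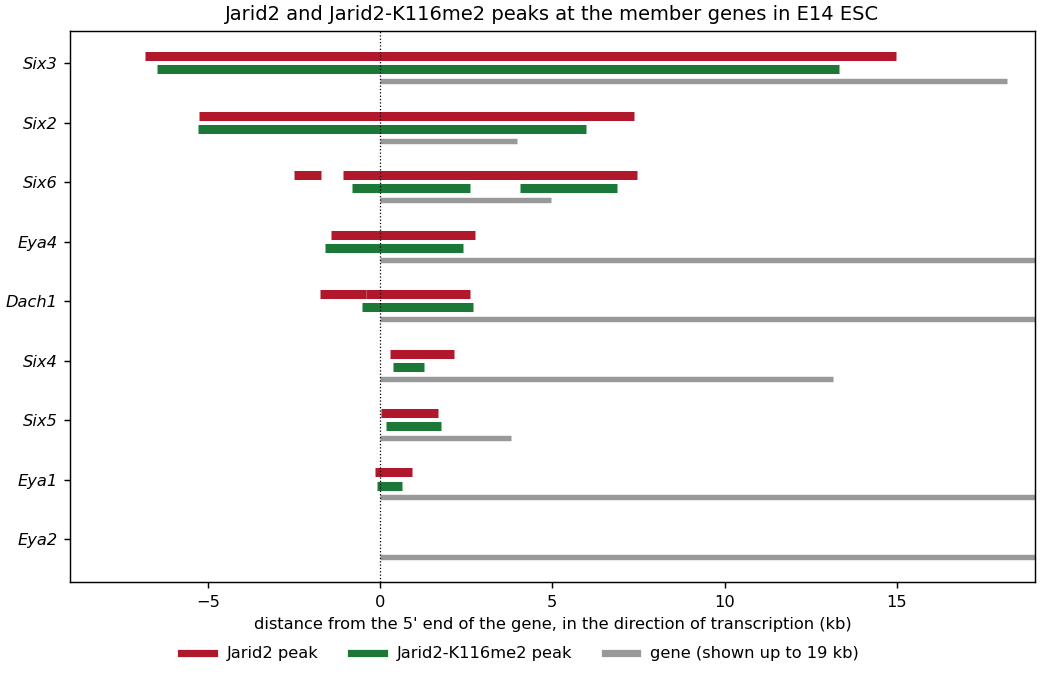
Jarid2 peaks (red), Jarid2-K116me2 peaks (green) and gene bodies (grey, shown up to 19 kb) of the 9 genes by distance from the 5' end of the gene in kb. The peaks of Six3, Six2 and Six6 run along the whole or most of the gene, those of Eya4, Dach1 and Eya1 sit at the start, those of Six4 and Six5 begin inside the gene, and Eya2 has none.

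The length covered by Jarid2 exceeded that covered by Jarid2-K116me2 at all 8 genes with peaks. The ratio ran from 1.05 at Eya4 to 2.03 at Six4, with a median of 1.24. Over the whole lists a peak was 1877 bp wide in the median for Jarid2 and 1684 bp for the methylated form, which is the same order. These medians are of single peaks, while the ratios sum all peaks of a gene. At Dach1 the Jarid2-K116me2 peak of 3217 bp was wider than the main Jarid2 peak of 3016 bp. Its ratio rose above 1 only with the second Jarid2 peak of 1320 bp.

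Eya2 differed from the others in the CpG ratio at the 5' end of the gene. Only the window at the 5' end was measured for each gene, and Eya2 has 6 annotated start sites. The 1001 bases around the 5' end of the gene had a CpG ratio of 0.29, while the other 8 genes had ratios from 0.57 at Dach1 to 0.94 at Six2. Genes with a Jarid2 peak had a median of 0.67 (quartiles 0.50 and 0.80) and genes without a peak one of 0.47 (quartiles 0.20 and 0.76). Searching both strands of the peaks, GCG (read as GCG or CGC, which can overlap each other) occurred from 10.6 times per kb in the second Dach1 Jarid2 peak to 75.1 in the Six5 peak, against a median of 32.1 over all Jarid2 peaks. The MEF3 motif TCAGGTT, a sequence bound by sine oculis homeobox factors, was found in 4 of the 10 Jarid2 peaks of the family, those of Six3, Six4 and both of Six6, and in 25.7% of all Jarid2 peaks. The same motif was found at 56.2% of the Jarid2 peaks at 3100, which are wider.

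A wider set of 26 genes that act in eye, ear, kidney and muscle development was listed beside the family, with earlier results of these data known, so its counts are a description. Jarid2 peaks were found at 21 of the 26 genes, beside 18.1% of all genes, and Jarid2-K116me2 peaks at 20, beside 16.0%, with 15 and 18 genes at 3100. The genes without a Jarid2 peak were Myog and Myf5, which drive muscle differentiation, Sall4, an ESC regulator, and Eya3 and Dach2, relatives of members. Sall1, a kidney regulator, had the lowest score, 118.89, and no Jarid2-K116me2 peak. Of 7 ESC marker genes only Esrrb had a peak, with scores of 2868.23 and 3072.68, and none of 5 genes used by every cell had a Jarid2 or Jarid2-K116me2 peak. These lists hold no expression values, so the cell type itself could not be checked from them.

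H3K27me3 was then read from the lists of broad peaks in the 10 kb around each gene start, as the mean listed score over those bases with bases outside peaks set to 0. The scale of this score is not stated in the sources used here. The libraries differed in how much was listed, from 1478 peaks over 2.31 Mb in ESC Jarid2 rescue replicate 1 to 14125 peaks over 55.0 Mb in EB Jarid2 -/- replicate 2. In all 6 groups the replicate 1 list held fewer peaks than the replicate 2 list. The study describes its replicate 2 samples as of higher quality and took its ESC and EB peak set from them. Here both replicates entered with equal weight. By the read totals that the study states, the Jarid2 rescue libraries were the shallowest in EB, while ESC Jarid2 rescue replicate 1, with the shortest list, was the deepest in ESC. The part of these differences in the values below was not tested.

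Six2, Six3 and Six6 had a listed H3K27me3 peak in the window in all 12 libraries, a state shared by 2.87% of all genes. Eya4 and Dach1 had a peak in 11 of 12 libraries, with ESC Jarid2 rescue replicate 1 at 0. In all 6 EB libraries 5 of the 9 genes had a peak, against 12.04% of all genes. Six5 had a peak in 4 of 6 ESC libraries and in 1 of 6 EB libraries. Six4 had a peak only in ESC Jarid2 -/- replicate 2, at a window score of 10.4, Eya1 only in EB Jarid2-K116A rescue replicate 2, at 1.76, and Eya2 in none. The strong set for Jarid2 in E14 ESC was thus also the set with H3K27me3 in nearly all libraries of the other lines, as a description of 9 genes.

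Window scores were compared with limma over 6747 genes with a value in at least 2 libraries, which included 6 of the family. Six4, Eya1 and Eya2 did not pass this filter. Differences are on the scale of log2 (window score + 1). Each p-value sets a difference against the spread between replicate libraries, as limma estimates it over all groups.

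Between EB and ESC, over all 3 lines, 28.8% of tested genes passed the test and the median difference over all genes was 1.06. Among the members only Six5 passed, and it was lower in EB. Six5 met the filter of at least 2 libraries only through ESC, where 4 of 6 libraries had a value against 1 of 6 in EB. The filter therefore favoured this direction at Six5. Its window scores in ESC were 0 and 15.4 in Jarid2 -/-, 0 and 7.73 in the Jarid2 rescue and 9.28 and 25.01 in the Jarid2-K116A rescue. In EB they were 0 in 5 libraries and 0.633 in Jarid2 -/- replicate 2. The 2 ESC libraries at 0 overlap with EB, and the difference was -2.42 ± 0.79 (SE, adjusted p = 0.0477). The call lies at the threshold and was lost in 15 of 20 alternative settings, in which the adjusted p ranged up to 0.126, while the sign held in all 20.

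Six3 had the highest median in both states, 91.9 in ESC and 156 in EB. In ESC its scores ran from 28.3 to 166, in EB from 120 to 244. The window was completely covered by a peak in all 6 EB libraries and in 3 of 6 ESC libraries, and the difference of 1.05 ± 0.51 (SE) did not pass the test (adjusted p = 0.146) and lay close to the median over all genes. It passed without ESC Jarid2 rescue replicate 2 (1.44, adjusted p = 0.0154). Six6 ranged from 21.1 to 125 in ESC and from 66.6 to 132 in EB, with overlapping ranges.

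**Figure D3:**
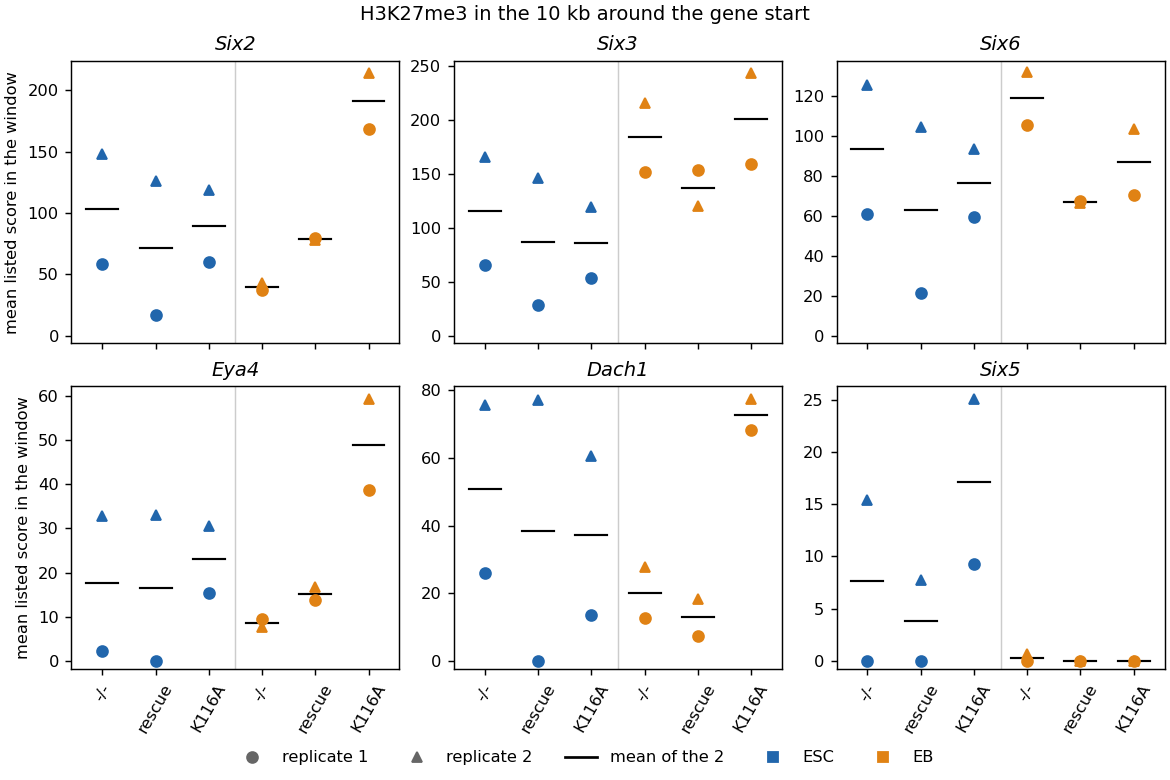
Mean listed H3K27me3 score in the 10 kb around the gene start (y axis, score units) for the 6 tested genes, by line and state on the x axis; circles are replicate 1, triangles replicate 2 and bars their mean. In EB (orange) the Six2, Eya4 and Dach1 scores of the Jarid2-K116A rescue lie above those of the Jarid2 rescue, and Six5 is at 0 or close to it.

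In EB, Six2 gave a stepwise order of the lines. The scores were 37.3 and 42.7 in Jarid2 -/-, 79.7 and 78.0 in the Jarid2 rescue and 168 and 214 in the Jarid2-K116A rescue. Each group lay wholly above the one before. The share of the window covered by peaks followed the same order, at 44.9% and 45.3%, then 84.7% and 80.4%, then 100% in both.

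Eya4 gave the same order at lower values, with 9.49 and 7.63 in Jarid2 -/-, 13.9 and 16.6 in the Jarid2 rescue and 38.7 and 59.2 in the Jarid2-K116A rescue. This order, without overlap, was found at 2 of the 6 tested members and at 2.09% of all tested genes. The order was taken from these values. Counts of groups without overlap, here and below, were not planned comparisons and are a description. Genes with no value in an EB Jarid2 rescue library cannot show this order, and only 3621 and 3917 genes had a value there. Six2 and Eya4 had a peak in all 6 EB libraries, so the share over all tested genes is not a like-for-like background. Both Jarid2 -/- samples lay below both Jarid2 rescue samples at 4.16% of genes, and the 2 members were again Six2 and Eya4. With values scaled to the median of each library the same 2 genes kept the order, found then at 3.59% of genes.

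Dach1 differed in the first step. Its EB scores were 12.8 and 27.7 in Jarid2 -/- and 7.42 and 18.3 in the Jarid2 rescue, which overlap, but 68.2 and 77.3 in the Jarid2-K116A rescue. Both Jarid2-K116A samples exceeded both Jarid2 rescue samples at 5 of the 6 tested members, namely Six2, Six3, Six6, Eya4 and Dach1, against 39.8% of all tested genes. Under scaling this held at Six2, Eya4 and Dach1 only, and at 31.3% of genes.

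The test over all genes called none of these member differences. Comparing Jarid2-K116A with the Jarid2 rescue in EB, where 2.42% of genes passed, the difference was 1.26 ± 0.99 (SE, adjusted p = 0.853) at Six2, 1.59 ± 1.69 (adjusted p = 0.927) at Eya4 and 2.53 ± 1.82 (adjusted p = 0.837) at Dach1, beside a median of 0.61 over all genes. Comparing Jarid2 -/- with the Jarid2 rescue in EB, where 16.5% of genes passed and the median was 1.10, it was -0.96 ± 0.99 (adjusted p = 0.719) at Six2 and -0.77 ± 1.69 (adjusted p = 0.911) at Eya4. The spread in these fits is estimated from all 6 groups, including the ESC groups whose replicates lay far apart, and with 2 samples against 2 an exact permutation test of a single gene cannot go below p = 0.333.

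The listed peaks at Six2 show where the lines differed. In EB Jarid2 -/- the peak ran from 516 to 5617 bp and from 469 to 6471 bp downstream of the gene start, with nothing listed upstream. In the Jarid2 rescue it began 3470 and 3040 bp upstream of the start and was 10122 and 10194 bp wide. In the Jarid2-K116A rescue it began 6159 and 7685 bp upstream and was 15393 and 18648 bp wide, wider than the E14 Jarid2 peak of 12643 bp. In ESC Jarid2 -/- the peaks began 3221 and 6044 bp upstream, so the upstream part was listed in the Jarid2 -/- line before differentiation. The EB Jarid2 -/- lists held the most peaks of the series, 10164 and 14125, and had the shortest EB peaks at Six2. The part of list length or read depth in these extents was not tested, and the Six2 score differences were not called.

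**Figure D4:**
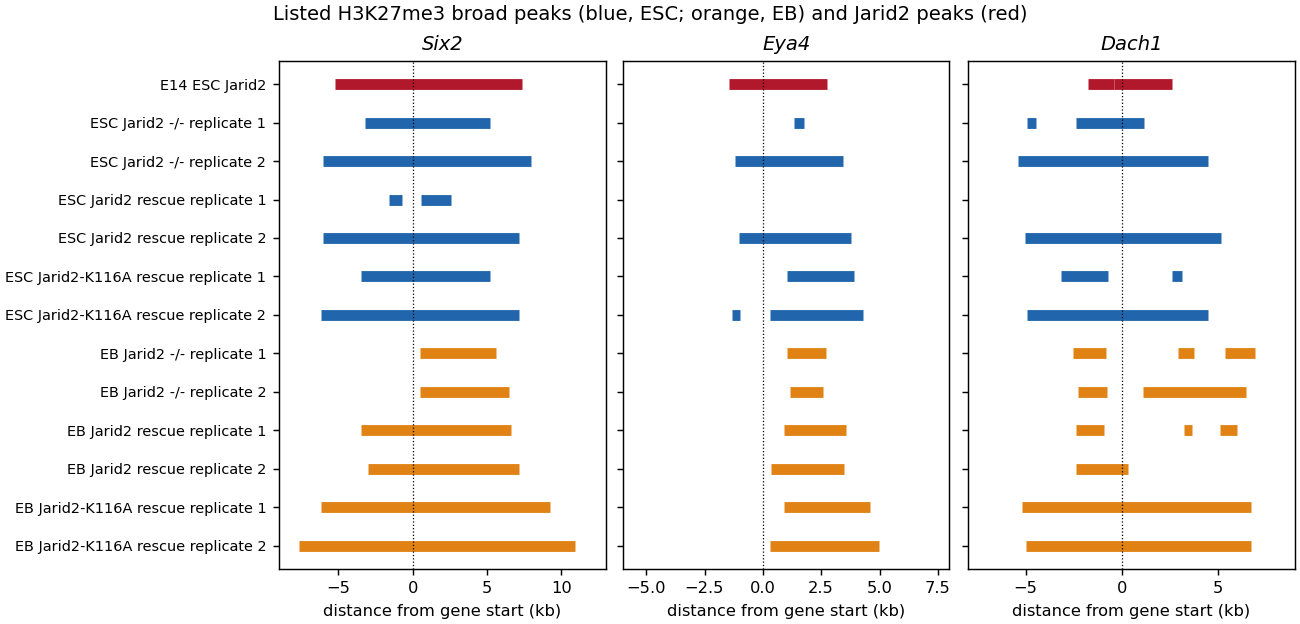
Extent of listed H3K27me3 peaks at Six2, Eya4 and Dach1 in each of the 12 libraries (blue, ESC; orange, EB) by distance from the gene start in kb, with the E14 Jarid2 peak in red above. At Six2 the EB peak lies downstream of the start in Jarid2 -/-, spans the start in the Jarid2 rescue and is widest in the Jarid2-K116A rescue.

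In ESC the lines could not be told apart at these genes. The Six2 scores were 58.1 and 148 in Jarid2 -/-, 16.5 and 126 in the Jarid2 rescue and 59.6 and 118.5 in the Jarid2-K116A rescue, so that the replicates differed more than the lines. The other members gave overlapping ranges too, except for Six5, where the Jarid2-K116A rescue (9.28 and 25.01) lay above the Jarid2 rescue (0 and 7.73), a separation found at 2.83% of tested genes. In the test of Jarid2 -/- against the Jarid2 rescue 0% of genes passed, with 27 genes at an unadjusted p under 0.05 in limma. In the test of the Jarid2-K116A rescue against the Jarid2 rescue 0.0296% passed, which is 2 genes, neither of them a member.

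Of the 26 network genes 20 passed the filter. Between EB and ESC 2 of them were called, below the 28.8% of all tested genes, and both were lower in EB, namely Otx2 (-2.15 ± 0.61, adjusted p = 0.0287) and Fgf8 (-2.00 ± 0.52, adjusted p = 0.0204), regulators of anterior patterning and of midbrain and limb signalling. Otx2 was also lower in EB Jarid2 -/- than in the Jarid2 rescue (-6.28 ± 1.06, adjusted p = 0.00301), the only network gene called in that comparison. The EB against ESC values pool the lines, and at Otx2 the lines differed. Its EB minus ESC difference was lower in Jarid2 -/- than in the Jarid2 rescue (-6.76, adjusted p = 0.0243 in limma). Between the Jarid2-K116A and the Jarid2 rescue this contrast was -1.32 and was not called. The pooled Otx2 value is therefore not a fall shown in each line. At Fgf8 the contrast of Jarid2 -/- with the Jarid2 rescue was -3.63 and was not called (adjusted p = 0.147). No network gene was called between the Jarid2-K116A and the Jarid2 rescue in either state.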

How the data were processed

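Jarid2 and Jarid2-K116me2 peaks were called by the authors with MACS 1.4.2 on single samples against input, and H3K27me3 broad peaks with MACS2 2.0.10, per replicate against input, after Bowtie2 2.1.0 mapping to mm9, per the labels and the study's methods. Every deposited list gives a score per peak, with no reads and no fold enrichment, so the listed score took the place of fold enrichment. Positions were converted to 1-based, and 0 of 103531 peaks lay past a chromosome end of NCBIM37. Genes came from GENCODE vM1. Window values, log2 (score + 1), entered limma 3.58.1 (R 4.3.3) with empirical Bayes and a mean trend over all 6 groups, and p-values were adjusted by Benjamini-Hochberg with a threshold of 0.05. The study describes the H3K27me3 replicates as independent biological samples. All 9 members were named. Network genes were named at the lowest Jarid2 score and as exceptions. The members and lists were chosen with earlier results of these data known. Input samples were not used here. The series holds 1 input of E14 ESC and 1 of Jarid2 -/- ESC, and none of EB or of the rescue lines. The study lists a single input beside its H3K27me3 libraries. The effect of this on the listed scores was not tested. The fit was also run on simulated data with independent noise for each gene and library. That simulation held no differences in list length between libraries, so it cannot show how the fit behaves under them.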

Additional observations from a re-analysis of the deposited data

Results flagged for a closer look

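Six2 moved in opposite directions in 2 lines between ESC and EB: on the log2 (score + 1) scale both EB samples lay above both ESC samples in the Jarid2-K116A rescue (difference 1.17) and below both ESC samples in Jarid2 -/- (difference -1.2). The difference between these effects, 2.36 ± 1.4 (SE), did not pass limma's test over all genes (adjusted p = 0.567, a comparison added after seeing the data). Rises without overlap in the Jarid2-K116A rescue were also found at Six3, Eya4 and Dach1, and at 38.4% of all tested genes. Falls without overlap in Jarid2 -/- were found at 5.6% of genes and both together at 0.608%, with Six2 the only member in either. Groups of 2 samples do not allow a check for a sample that stands apart.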

How the results depend on the processing

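Keeping only the 50% of peaks with the highest scores lowered the members with a Jarid2 or Jarid2-K116me2 peak from 8 to 5; no margin, 10 kb and 1 kb around a start site left 8. Requiring an overlap of 50% of each peak left 6 of the 9 shared Jarid2 peaks. For genes called between EB and ESC the count of 1941 became 1010 with 2 kb on each side of the start. With the replicate number as a block (replicate block) it became 3088, and 2971 with library scaling as well, an alternative chosen after seeing the data. The replicate numbers were not treated as pairs in the main fit. Over genes, the replicate 2 minus replicate 1 deviations had a correlation over 0.1 in 4 of 15 pairs of groups (median 0.033, highest 0.556). Such a correlation does not register a shift shared by all genes, so an effect of replicate number was not tested by it. For Jarid2 -/- against the Jarid2 rescue in EB the count of 1113 became 625 with the 2 kb windows. For Jarid2-K116A against the Jarid2 rescue in ESC the count of 2 became 0 with the replicate block or without the filter, 1 over gene bodies and 4 with a pseudocount of 0.1.

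Leaving out 1 library gave 633 to 3260 genes for EB against ESC, 0 to 600 and 0 to 368 for Jarid2 -/- and Jarid2-K116A against the rescue in ESC, and 0 to 1042 and 0 to 119 for the same comparisons in EB. The lowest EB against ESC count came without EB Jarid2 -/- replicate 2 and the highest without ESC Jarid2 rescue replicate 2, which also gave the 600 and 368. The counts of 0 in EB came without EB Jarid2 -/- replicate 2 and without EB Jarid2-K116A rescue replicate 2, respectively. The causes were not tested. Six3 gained a call between EB and ESC with the replicate block and library scaling together (adjusted p = 0.0430). Six5 kept its call with the replicate block, with library scaling, with both, and without ESC Jarid2 -/- replicate 1 or ESC Jarid2 rescue replicate 1. The Six2, Eya4 and Dach1 differences in EB kept their sign and stayed uncalled in all 13 alternatives each. Library scaling moved the median of all genes by up to 0.43 downwards (log2).

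With no reads, a gene at 0 means only that no peak was listed, and the window scores could not be adjusted for read depth from these lists.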

Other observations

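The genes whose H3K27me3 window scores followed the mean of the 6 tested members most closely over the 12 libraries were Samd4 (Pearson r = 0.977), Boll (0.974), Peg12 (0.973), Slc24a3 (0.973) and 5033430I15Rik (0.971), out of 6741 genes. The libraries share differences in how much was listed, and the correlation is a description.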
